A study of Mus musculus with 2 samples.

Results

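The genes described here encode the splicing machinery of the cell: the SR proteins (Srsf genes), the heterogeneous nuclear ribonucleoproteins (Hnrnp genes), the SF3A and SF3B subunits (Sf3a and Sf3b genes), the small nuclear ribonucleoprotein proteins (Snrp genes), the numbered Prpf proteins and the U2AF subunits. Membership was decided by symbol and used no measured value, but the families were chosen with earlier results of these data known. All probe sets annotated to a single gene whose symbol begins in one of these ways were taken, which gave 174 probe sets of 62 genes, among 34945 probe sets of 18193 genes in all. Of these 62 genes, 61 gave a usable signal on at least 1 array. The exception was Snrpn, whose only probe set of its own read 34.7 and 21.8, below the floor of 57.8 under which signals were not ordered.

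RNA came from 2 sorted cell populations, both from back skin of CD-1 mouse pups at postnatal day 4 and both carrying K14-RFP/Sox9-EGFP, a red reporter driven by the keratin 14 promoter and a green reporter for Sox9. The early bulge sample held follicle cells bright for both reporters, the future stem cell region of the follicle. The other sample, non-bulge outer root sheath (ORS), held cells with high red signal that lacked the green one. Dead cells, and big cells that had begun to differentiate, were removed from both sorts, and no source used here gives the number of pups per sort. Each population was hybridised to 1 array, so no value below has a replicate, no test was possible, and every ratio compares these 2 arrays. Ratios are early bulge over ORS, and in a sorted pool fewer cells of a type and less RNA per cell cannot be told apart.

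Pre-mRNA splicing removes introns in the spliceosome, an assembly of small nuclear RNAs and proteins. U1 binds the start of the intron, U2AF and the U2 particle with SF3A and SF3B bind its end and branch site, and the U4/U6.U5 tri-snRNP then joins and is rearranged into the active enzyme. SR proteins mostly promote and hnRNP proteins often repress the use of nearby exons, so their balance bears on alternative splicing. Most of these genes are expressed in all cell types, the core subunits above all.

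The start regions of 4 members are shown because these genes had the lowest (Srsf9, Snrpb2) and highest (Srsf5, Hnrnpab) ratios among members above the floor on both arrays with a single start in the RefSeq table used (GRCm38.p6). Genes were ranked on their brightest probe set, and for Hnrnpab the mean over probe sets has the other sign. Each run is the 250 bases before the start, 5′ to 3′ on the gene's strand. Capitals mark motifs found on either strand. The motifs searched were CCGGAAG, which is bound by ETS factors, GGGCGG, which is known as the GC box, and CCAAT, the box bound by NF-Y. The search also covered GCGCATG for the factor NRF1, AAGATGG for the factor YY1, TGACGTC for the cyclic AMP response element (CRE) and TATAAA for the TATA box. E2F was searched as TTCCCGC and by its other form, which reads TTGGCGC. The regions are chr5:115326927-115327176 on the + strand for Srsf9, chr2:143062819-143063068 on the + strand for Snrpb2, chr12:80945249-80945498 on the + strand for Srsf5 and chr11:51606882-51607131 on the - strand for Hnrnpab.
Srsf9: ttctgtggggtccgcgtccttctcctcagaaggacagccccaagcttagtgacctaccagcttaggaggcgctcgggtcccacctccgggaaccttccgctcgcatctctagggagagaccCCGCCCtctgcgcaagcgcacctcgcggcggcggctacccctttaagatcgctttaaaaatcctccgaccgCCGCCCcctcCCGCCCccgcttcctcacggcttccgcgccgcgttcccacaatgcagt
Snrpb2: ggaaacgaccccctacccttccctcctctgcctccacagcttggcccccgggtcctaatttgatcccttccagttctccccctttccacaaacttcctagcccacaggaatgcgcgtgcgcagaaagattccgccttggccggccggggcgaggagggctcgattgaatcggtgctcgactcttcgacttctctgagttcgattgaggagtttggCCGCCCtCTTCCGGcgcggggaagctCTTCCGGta
Srsf5: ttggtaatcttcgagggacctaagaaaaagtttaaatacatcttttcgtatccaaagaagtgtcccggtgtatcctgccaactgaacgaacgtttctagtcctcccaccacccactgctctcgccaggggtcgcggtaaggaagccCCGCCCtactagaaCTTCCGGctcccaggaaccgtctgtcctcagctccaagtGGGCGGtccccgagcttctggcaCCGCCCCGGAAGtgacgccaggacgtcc
Hnrnpab: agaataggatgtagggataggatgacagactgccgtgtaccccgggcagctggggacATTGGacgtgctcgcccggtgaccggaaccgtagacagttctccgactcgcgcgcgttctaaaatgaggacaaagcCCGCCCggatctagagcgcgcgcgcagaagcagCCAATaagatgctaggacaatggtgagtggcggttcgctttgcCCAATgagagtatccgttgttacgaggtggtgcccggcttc

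The 4 regions held different motifs. Srsf9 had 3 GC boxes and none of the other motifs. Snrpb2 had 1 GC box and 2 ETS motifs, with the ETS motifs beginning 28 and 9 bases before the start. Srsf5, on the other side of the ratio scale, also had 2 ETS motifs, at 90 and 23 bases, beside 3 GC boxes, the last of which overlaps an ETS motif by 1 or more bases. Hnrnpab had 3 CCAAT boxes and 1 GC box. Both a member with a low ratio and a member with a high ratio thus carried ETS motifs in these windows.

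Promoters were in the table for 54 of the 61 measured genes, with 71 start sites. An ETS motif stood in 21 of these 71 windows (29.6%), against 8.98% of the 21263 windows of all protein-coding genes. E2F motifs stood in 20 (28.2%, against 7.20%), GC boxes in 46 (64.8%, against 42.6%) and CCAAT boxes in 35 (49.3%, against 35.4%). TATA boxes were in 4 (5.63%, against 11.6%), NRF1 in 4 (5.63%, against 3.97%), CRE in 4 (5.63%, against 3.36%) and YY1 in 1 (1.41%, against 4.13%). The member windows were also richer in G and C (median 60.4% against 55.6%) and in CpG (median 21 against 10 per window). The part of this base content in the motif shares was not tested. Among the 10 windows of the 9 members with the lowest ratios, 3 held an ETS motif, 1 an E2F motif, 4 a GC box, 4 a CCAAT box and 1 a TATA box. These are matches of letters and no record of binding.

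Splicing genes had slightly lower signals on the early bulge array. Of the 61 measured genes, 46 (75.4%) were lower there by any size, where 47.0% of all 13252 measured genes were lower. The median log2 ratio of the members was -0.22, against 0.04 for all measured genes, so the typical member was 1.16-fold lower. None of the members was at least 2-fold apart in either direction, where 12.1% of all measured genes were, 7.3% higher and 4.78% lower. At a looser threshold of 1.5-fold, 9 members (14.8%) were lower, a share near the 12.8% of all genes, and 2 members (3.28%) were higher, against 17.1% of all genes. Most members lay within 1.5-fold of equality (50 of 61). Sf3a1 and Hnrnpd (both 1.48-fold lower) fell just short of the 1.5-fold threshold. Snrpa1 (1.55-fold lower) and Snrpf (1.60-fold lower) just passed it and were counted as lower. With each array centred on its own median, 57 of 61 were lower (93.4%, against 62.6% of all genes), since that scaling moved the median of all genes by -0.21 on the log2 scale. Relative to the median of all genes, 51 members lay below it with the reported scaling and with median centring, 45 with quantile normalization and 43 with loess scaling.

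The members' ratios were also packed more closely than those of other genes. Their interquartile range was 0.42 on the log2 scale, from -0.43 to -0.01, against 0.71 for all measured genes. Most members were bright, and MAS5 values are noisy at low signal. The part of brightness in the narrower range was not tested. Set beside the 2207 genes at least as bright as the lower quartile of the members (a signal of 2318), a background chosen after seeing the data, the members were again more often lower (75.4% against 54.6%). In that background the median was -0.04, the interquartile range 0.51, 6.71% were at least 2-fold apart (4.12% higher, 2.58% lower, against 0 members), 10.6% were at least 1.5-fold lower and 10.3% at least 1.5-fold higher.

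**Figure D1:**
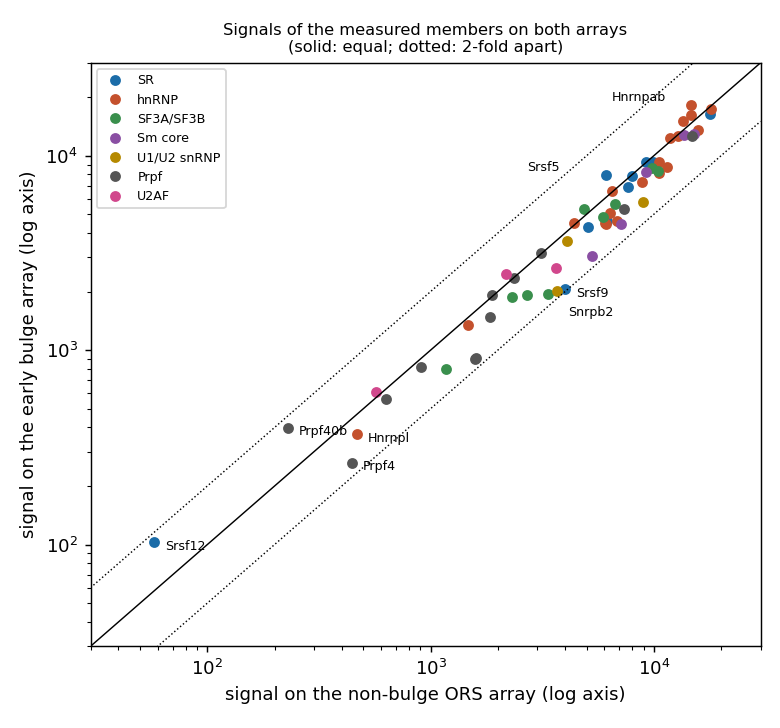
Signals of the 61 measured members on the non-bulge ORS array (horizontal, log axis) and the early bulge array (vertical, log axis), 1 point per gene coloured by role, with signals under the floor of 57.8 drawn at the floor. Every point lies between the dotted lines that mark 2-fold, and 46 of 61 lie below the solid line of equal signal.

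The SR proteins carry domains rich in arginine and serine and bind exonic enhancers. Of 10 measured, 7 were lower (70%, against 47.0% of all genes) and 3 higher by any size, with a median log2 ratio of -0.11. Srsf9, an SR protein of the smaller kind, read 2053 in the early bulge and 4012 in the ORS, a log2 ratio of -0.97 (1.95-fold lower), the lowest of all members. It rests on a single probe set. Srsf10, which represses splicing when dephosphorylated, read 4628 and 6189 (log2 ratio -0.42), and its 4 probe sets were all lower, from -0.66 to -0.21. Srsf5 went the other way, with 7955 for the early bulge and 6110 for the ORS (log2 ratio 0.38). Srsf12 read 102.6 in the early bulge and 42.4, under the floor, in the ORS, so it was at least 1.78-fold higher. Srsf12 passed the filter only through the array where it was high, and it is 1 of the 2 members counted as 1.5-fold higher.

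The best known SR proteins were nearly level on their brightest probe sets. Srsf1, the founding member of the family, read 16288 and 17830 (log2 ratio -0.13). Srsf2, also called SC35 and used as a marker of nuclear speckles, read 7847 and 7999 (-0.03). Srsf3, the smallest of the family, read 9316 and 9917 (-0.09), and Srsf6 read 9296 and 9214 (0.01). Srsf4 (4320 and 5059, -0.23) and Srsf11 (6900 and 7686, -0.16) were a little lower. The signs of Srsf2 and Srsf6 depend on the scaling. Other probe sets of these genes were mostly lower than the brightest: those of Srsf1 ran down to -0.63, of Srsf3 down to -0.51 and of Srsf2 down to -0.47, while 1 of Srsf3 gave 0.32.

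The hnRNP proteins coat nascent transcripts and act in splicing, export and stability. Of 19 measured, 13 were lower (68.4%, against 47.0% of all genes) and 6 higher by any size, with a median log2 ratio of -0.19. None was 1.5-fold apart, where 12.8% of all genes were lower and 17.1% higher by that much. Hnrnpd, also called AUF1 and known for the decay of AU-rich mRNAs, had the lowest ratio (4609 and 6800, -0.56), with other probe sets from -0.67 to -0.00. Hnrnpul1 (4457 and 6079, -0.45), Hnrnpll, a relative of Hnrnpl that regulates splicing in lymphocytes (4497 and 6056, -0.43), and Hnrnpa0 (8767 and 11459, -0.39) followed. Both measured probe sets of Hnrnpll gave nearly the same value, -0.43 and -0.42. Hnrnpr read 8122 and 10587 (-0.38), and its 5 probe sets were all lower.

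Other hnRNP genes lay closer to equality. Hnrnpl, which binds CA-rich elements, read 369.1 and 466.2 (-0.34), Hnrnph2 5085 and 6377 (-0.33), and Hnrnpm 7280 and 8826 (-0.28). Hnrnpa2b1 read 13548 and 15758 (-0.22) and Hnrnph3 1353 and 1472 (-0.12). Hnrnpk, a KH-domain protein that binds C-rich RNA, read 17309 and 18065 (-0.06) and Hnrnph1 12638 and 12784 (-0.02). On the other side stood Hnrnpul2 (4477 and 4371, 0.03), Hnrnpc, which binds U tracts (12267 and 11772, 0.06), Hnrnpdl (16106 and 14679, 0.13) and Hnrnpf (15123 and 13549, 0.16). Other probe sets of these genes were often lower than the brightest: the mean over probe sets was -0.24 for Hnrnpc, -0.08 for Hnrnpdl and -0.25 for Hnrnpf, so their direction turns with the probe set.

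Hnrnpab, Hnrnpu and Hnrnpa1 were the 3 members whose probe sets spanned more than 1.0 on the log2 scale. Hnrnpab has 7 probe sets. The brightest read 18280 and 14655 (0.32), another bright probe set 12497 and 13489 (-0.11), and the dimmest 51.2, below the floor, and 199.1, a log2 ratio of -1.78 against the floor. A dim probe set of the same gene gave 0.83 (201.4 and 113.0), so no single value describes Hnrnpab, and the mean over its probe sets was -0.25. Hnrnpu, which also binds chromatin as scaffold attachment factor A, read 9294 and 10570 on the brightest of 5 probe sets (-0.19), and 888.6 and 2102 on another (-1.24), while a dimmer set gave 0.33. Hnrnpa1, an exon-skipping factor that antagonises Srsf1, read 6610 and 6515 (0.02), with its other probe sets at 0.23 and, for a dim set of 84.8 and 146.4, -0.79. Hnrnpa1 has several near-identical processed copies in the genome, so reads of its probes are uncertain, and its sign depends on the scaling.

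**Figure D2:**
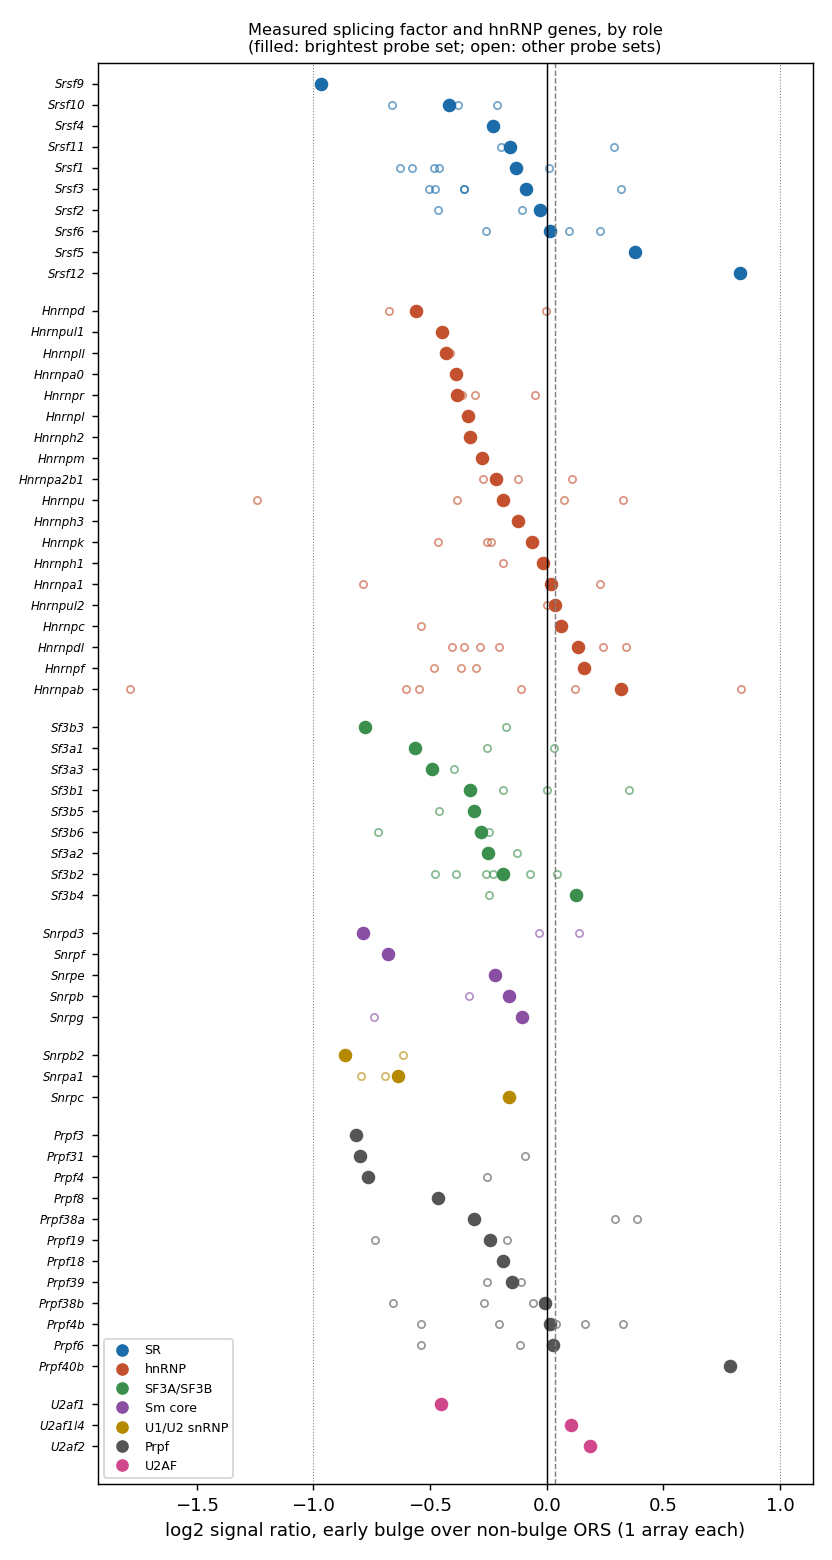
Log2 signal ratio (early bulge over non-bulge ORS, 1 array each) of the 61 measured members by role; filled points are the brightest probe set of a gene and open points its other measured probe sets. The solid line is equality, the dashed line the median of all measured genes (0.04) and the dotted lines 2-fold; the open points beyond 2-fold belong to Hnrnpab and Hnrnpu.

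Subunits of the U2 particle, which selects the branch site, were lower with 1 exception. SF3A and SF3B were measured through 9 genes, 8 of them lower (88.9%, against 47.0% of all genes), with a median log2 ratio of -0.31. Sf3b3, a large scaffold subunit, read 1950 and 3346 (-0.78, 1.72-fold lower), with its other probe set at -0.17. Sf3a1 read 796.7 and 1178 (-0.56), with other probe sets up to 0.03. Sf3a3 read 1912 and 2690 (-0.49), with the other at -0.40. Sf3b1, the subunit that holds the branch site and is recurrently mutated in blood cancers, read 8331 and 10470 (-0.33), and its probe sets ran up to 0.35. Sf3b5 (1867 and 2314, -0.31), Sf3b6 (4846 and 5892, -0.28), Sf3a2 (5608 and 6682, -0.25) and Sf3b2 (8612 and 9809, -0.19) were lower by smaller amounts. Sf3b4 was the exception on its brighter probe set (5294 and 4845, 0.13), while its other probe set gave -0.25 and the mean of both was -0.06.

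Snrpb2 and Snrpa1, which also encode proteins of the U2 particle, were both among the members with the lowest ratios. Snrpb2, the U2-B'' protein, read 2018 and 3675 (-0.86, 1.82-fold lower), and its other measured probe set gave -0.61. Its partner Snrpa1, the U2-A' protein, read 5768 and 8965 (-0.64, 1.55-fold lower), with probe sets at -0.79 and -0.69 besides. No measured probe set of either gene was less than 1.5-fold lower, and among the 9 members called lower at that threshold they were the only ones with more than 1 measured probe set of which this held. Snrpc, a U1 protein that helps recognise the 5′ splice site, read 3634 and 4063 (-0.16). The U2AF subunits, which hand the 3′ splice site to U2, differed among themselves. U2af1, which reads the AG at the end of the intron, was lower (2649 and 3628, -0.45), while U2af2, which binds the pyrimidine tract, read 2472 and 2174 (0.19) and the U2af1 relative U2af1l4 611.9 and 569.2 (0.10). Each of the 3 U2AF genes was measured by 1 probe set.

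Sm proteins form a ring shared by most of the spliceosomal snRNPs. All 5 measured genes were lower (47.0% of all genes were), with a median log2 ratio of -0.22. Snrpd3 read 3053 and 5261 (-0.79, 1.72-fold lower), but its other probe sets gave -0.03 and 0.14. The mean over them was -0.23. Snrpf read 4440 and 7106 on its only probe set (-0.68, 1.60-fold lower). Snrpe (12986 and 15127, -0.22), Snrpb (8255 and 9240, -0.16) and Snrpg (12740 and 13693, -0.10) were closer to equality on bright probe sets, and a dimmer probe set of Snrpg gave -0.74.

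The Prpf genes act at several stages and spanned nearly the whole range of the members. Of 12 measured, 9 were lower (75%, against 47.0% of all genes) and 3 higher by any size, with a median log2 ratio of -0.22. The lowest ratios were those of the 3 measured proteins of the U4/U6 particle. Prpf3 read 898.8 and 1584 (-0.82, 1.76-fold lower), Prpf31 913.4 and 1590 (-0.80, 1.74-fold lower) and Prpf4 261.9 and 445.3 (-0.77, 1.70-fold lower). Other probe sets gave -0.09 for Prpf31 and -0.25 for Prpf4, so only the direction was shared by their probe sets. Mutations of Prpf3 and Prpf31 are known in inherited retinal degeneration. The U5 proteins were nearer to equality, with 5330 and 7351 for Prpf8, the core of the active site (-0.46), and 1912 and 1878 for Prpf6 (0.03).

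Later-acting and accessory Prpf genes lay closer to equality, except Prpf40b. Prpf19, the ubiquitin ligase at the centre of the complex named after it, read 12543 and 14855 (-0.24), and its 4 measured probe sets were all lower, down to -0.74. Prpf38a read 1481 and 1839 (-0.31), although its other probe sets were higher and its mean over probe sets was 0.12. Prpf18, a factor of the second catalytic step (557.2 and 634.4, -0.19), and Prpf39, a U1-associated protein (820.5 and 909.5, -0.15), were a little lower. Prpf38b (2350 and 2359, -0.01) and the kinase Prpf4b (3164 and 3136, 0.01) were level. Prpf40b, a U1-associated protein with WW domains, was the only member above the floor on both arrays that was 1.5-fold higher (396.6 and 230.0, log2 ratio 0.79, 1.72-fold higher), on a single probe set.

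Probe sets of a single gene give a measure of technical spread only. Of the 41 members with at least 2 measured probe sets, 21 had all of them lower, 1 had all of them higher (Hnrnpul2), and 19 had probe sets on both sides of 0. The same counts were not made over all genes, so these have no background. The SD of the difference in log2 ratio between probe sets of the same member was 0.53 over 232 pairs, against 0.59 over 18642 pairs of all genes, so the ratio of a single member is mostly smaller than this spread. Over the 165 measured member probe sets, 126 (76.4%) were lower by any size, against 46.5% of all 24133 measured probe sets, and 2 (1.21%) were at least 2-fold apart, against 11.2%. Both of these were lower, where 4.44% of all probe sets were 2-fold lower and 6.75% higher. At 1.5-fold, 23 (13.9%) were lower, against 12.3%, and 3 (1.82%) higher, against 16.5%. The 93 probe sets with no suffix, which are designed to match a single gene, had a median of -0.25. Those with an a, s or x suffix, which can match several transcripts or genes, had medians of -0.23 (31 probe sets), -0.24 (22) and -0.25 (19). Averaged over probe sets, 53 of 61 members were lower, and 5 were at least 1.5-fold lower, where 45.2% and 11.0% of all genes were under the same setting.

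Other core proteins and regulators of splicing were also mostly lower by any size. Their share at least 1.5-fold lower was near that of all genes, and their share at least 1.5-fold higher was smaller. Of 51 measured genes of other snRNP and spliceosome core proteins, 39 were lower (76.5%, against 47.0% of all genes). The median log2 ratio was -0.25. Of these 51, 6 were lower by 1.5-fold or more (11.8%, against 12.8%). None was higher by that much, where 17.1% of all genes were. Lsm6, a subunit of the ring that binds U6, had the lowest ratio (784.1 and 1772, 2.26-fold lower), but its probe sets ran from -1.18 to 0.09. Crnkl1 (412.9 and 741.5, -0.84), Lsm2 (163.9 and 286.7, -0.81) and the tri-snRNP protein Sart1 (709.2 and 1099, -0.63) were the next. Other probe sets gave -0.04 for Crnkl1 and -0.14 for Sart1. Of 38 measured splicing regulators outside the chosen families, 28 were lower (73.7%), including 6 at 1.5-fold or more (15.8%). Only 1 was higher by that much (2.63%, against 17.1% of all genes), and the median was -0.12. Celf2 read 356.7 and 1228 (3.44-fold lower), and its 5 probe sets were all lower, from -2.32 to -0.30. Fubp1 (1103 and 2256, -1.03), Tia1 (1696 and 2672, -0.66) and Sfpq (4791 and 7498, -0.65) followed, and each of these 3 had another probe set above 0. The epithelial splicing regulator Esrp2 was the gene at least 1.5-fold higher (2143 and 1410, 0.60), while its relative Esrp1 read 6579 and 6781 (-0.04). Both Esrp genes are named after their values were seen.

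Kinases that phosphorylate SR proteins were mixed. Of 6 measured, 4 were higher on the early bulge array and 2 lower (33.3%, against 47.0% of all genes), with a median log2 ratio of 0.36, and none was 2-fold apart. Clk4 read 597.3 and 315.0 (0.92, 1.90-fold higher), with its other probe set at 0.58. Clk1 read 6251 and 4082 (0.61, 1.53-fold higher), Clk3 751.5 and 569.4 (0.40) and Srpk2 2860 and 2301 (0.31). Clk2 (1716 and 1792, -0.06) and Srpk1 (2168 and 2344, -0.11), named after their values were seen, were nearly level. Of the exon junction complex, which marks spliced junctions, Rbm8a (4765 and 5925, -0.31) and Casc3 (814.0 and 752.6, 0.11) were measured, and Eif4a3 was below the floor on both arrays.

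**Figure D3:**
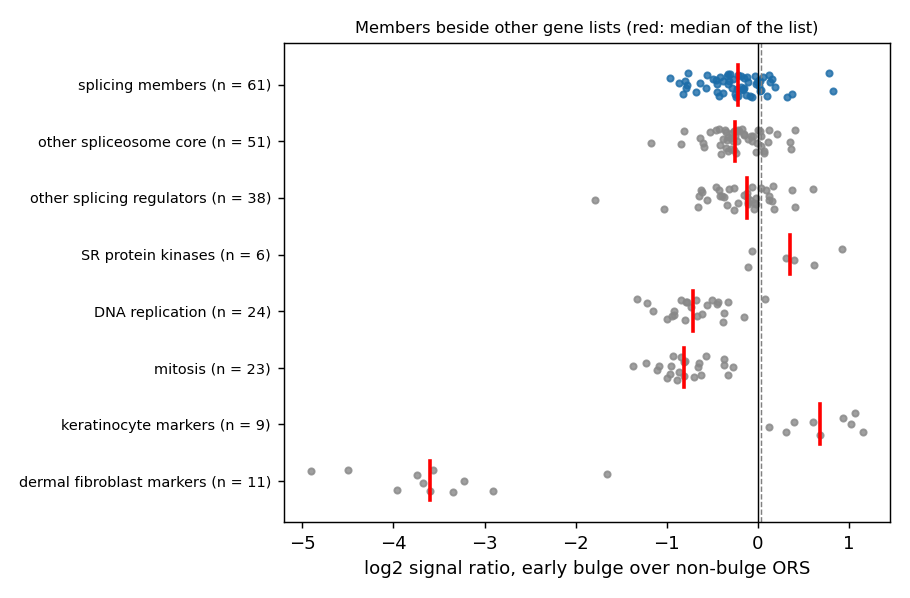
Log2 signal ratio (early bulge over non-bulge ORS) of each measured gene of the splicing members and of 7 other lists, 1 point per gene, with red bars at list medians and a dashed line at the median of all genes. The members (median -0.22) lie between the cell cycle lists (-0.71 and -0.81) and the keratinocyte markers (0.69).

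Cell cycle genes and markers of dermal cells were lower on the same array as the splicing genes. Of 24 DNA replication genes, 23 were lower on the early bulge array, with a median of -0.71, a summed signal of 91311 there and 134974 in the ORS, and Cdc6 (2.51-fold lower) and Rfc4 (2.33-fold lower) at the lower end. All 23 measured mitotic genes were lower, with a median of -0.81, sums of 57720 and 89839, and Tpx2 (2.58-fold) and Bub1 (2.34-fold) the lowest. The 4 probe sets of Tpx2 ran from -1.37 to 0.27, while the 2 of Bub1 were both lower. All 11 measured dermal fibroblast markers were lower (median -3.60, sums 5732 and 65075), led by Lum (29.9-fold lower) and Dpt (22.5-fold lower), with Pdgfra (11.3 and 738.3) the only one under the floor in the early bulge. Of 8 pericyte and smooth muscle markers, 7 were lower (median -1.02, sums 4598 and 19599), led by Tagln (34.1-fold lower) and Acta2 (8.58-fold lower). Their part in the lower splicing signals was not tested.

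The labelled cell types could be checked on the same arrays. All 9 keratinocyte markers were above the floor and higher on the early bulge array (median 0.69, sums 104676 and 69806), led by Krt14 (2.23-fold) and Itga6 (2.10-fold). Sox9, the gene behind the green gate, was 6.01-fold higher there, although its probe sets ran down to 0.30 on the log2 scale, and of the 9 bulge and stem cell markers 6 were higher and 3 lower. Foxc1 (38.0-fold) and Nfatc1 (32.2-fold) were the highest of these, while Lgr5 and Lhx2 were slightly lower. Cd34, a marker of the adult bulge, was 9.75-fold lower on 1 probe set. It read 61.8 in the early bulge, just above the floor of 57.8, and 602.9 in the ORS. Melanocyte markers were mixed, with 3 of 8 lower sums of 2958 and 3438, and Kit (7.08-fold lower) and Tyrp1 (1.72-fold higher) the farthest from equality. Of 8 immune markers, 4 (Ptprc, Cd3e, Cd207 and Itgam) were below the floor on both arrays, and of the 4 others 1 was lower (sums over all 8 of 576.4 and 437.8), with Lyz2 (61.6 and 108.8) and Cd74 (147.1 and 87.6) the farthest from equality. Of 6 endothelial markers, Pecam1, Cdh5, Emcn and Vwf were below the floor on both arrays, and Tek and Kdr were lower (sums 140.0 and 460.3). The 3′ to 5′ signal ratio of the Gapdh control was 3.79 in the early bulge and 3.47 in the ORS, and that of the actin control 3.66 and 3.24, so the 3′ weight was slightly greater on the early bulge array. Its part in the ratios was not tested.

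The offset of the splicing genes from all genes was similar under each processing tried. The difference between the median of the members and that of all measured genes was -0.25 as reported above and lay between -0.34 (probe sets without a suffix) and -0.19 (loess scaling) in the alternatives. Of the 61 members, 43 were lower under the reported scaling and under each of median centring, quantile normalization and loess scaling, 4 (Hnrnpab, Srsf5, Srsf12 and Prpf40b) were higher under all of them, and the other 14 changed sign under at least 1 of these scalings. Of these, Hnrnpa1, Hnrnpdl, Hnrnph1, Prpf38b, Srsf2 and Srsf6 changed sign under quantile normalization or loess scaling. The rest did so only under median centring, which moves every gene above the floor by one amount, so that small positive ratios must turn. Agreement across scalings was not counted over all genes. Taken singly, 47.0% of all genes were lower under the reported scaling and 62.6% under median centring. Under quantile normalization 51.9% were lower, and under loess scaling 51.0%.

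**Figure D4:**
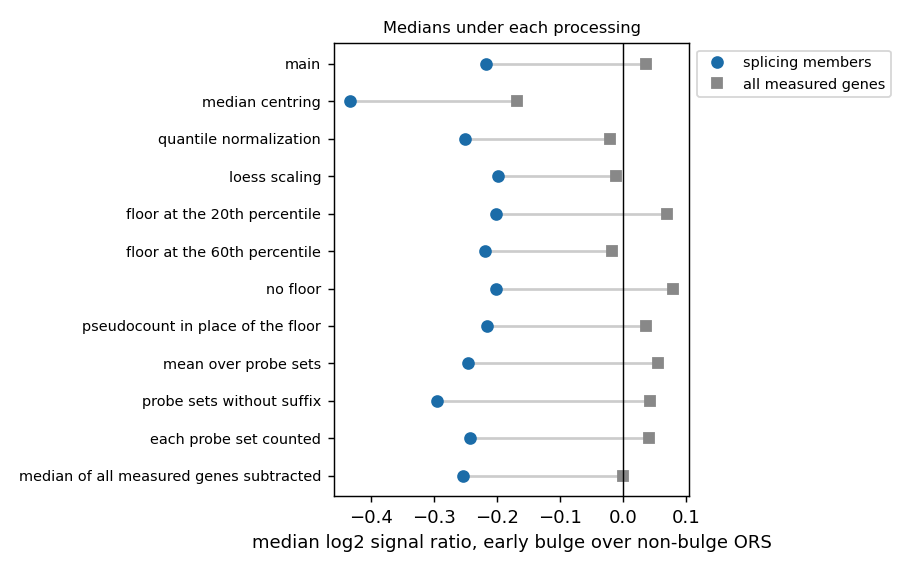
Median log2 signal ratio (horizontal) of the splicing members (circles) and of all measured genes (squares) under the reported processing (main) and 11 alternatives (vertical). The circle lies left of the square in each row, with differences from -0.34 to -0.19.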

How the data were processed

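RNA of each sorted population was labelled as biotinylated cRNA and read on 1 Affymetrix array of 45101 probe sets, 64 of them controls. The deposited values are linear signal intensity. According to the submitters' processing notes, the authors used MAS5 and Affymetrix Expression Console, without a version. The 2% trimmed mean was 500.0 on both arrays, so the authors had scaled each to one target. MAS5 values are noisy at low signal. No genome build for the array is named in the labels.

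Gene symbols came from GEO's platform annotation, and all 62 member symbols matched RefSeq (GRCm38.p6) by Entrez ID. Probe sets with several or no symbols were left out. Where a gene had several probe sets, the brightest (mean log2 over both arrays) stood for it. Signals under the 40th percentile of all non-control signals (57.8) were set to it, and a gene was measured if either array reached it (13252 genes, 1718 with 1 array below it, whose ratios are bounds). With 1 array per group, genes were counted past 1.5-fold and 2-fold, with no test. The number of arrays limits the precision.

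The members and lists were chosen with earlier results of these data known. Every member is named. Outside the members, the named genes are up to 4 of each pathway list and 2 of each cell cycle and marker list with the largest absolute ratio, Sox9, Krt14 and any marked as chosen later. Markers under the floor on 1 or both arrays, and Cd34, Lgr5 and Lhx2, were named after their values were seen. Listed genes without a probe set of their own were left out. Alternatives changed the scaling, the floor (20th and 60th percentile, none, or a pseudocount) and the choice of probe set. The loess span was 0.4. Promoters are RefSeq's. Python 3.11.15, numpy 2.4.6, pandas 2.3.3 and statsmodels 0.14.6 were used. The procedure was also run on simulated arrays. The differences planted there were larger than any member's ratio, so that run does not bear on the small offset of the members.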

Additional observations from a re-analysis of the deposited data

How the results depend on the processing

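Counts of members past a fold depend on how the arrays are scaled. With median centring, 5 members (Srsf9, Snrpb2, Prpf3, Prpf31 and Snrpd3) were at least 2-fold lower in place of 0 (7.70% of all genes were), 19 were at least 1.5-fold lower in place of 9 and 1 was 1.5-fold higher in place of 2 (11.3% of all genes were), and the median was -0.43. That scaling moved the median of all genes by -0.21, and 21.0% of all genes were then at least 1.5-fold lower. With the median of all genes subtracted, an alternative chosen after seeing the data, 1 member (Srsf9) was at least 2-fold lower (5.23% of all genes were). With a floor at the 20th percentile or no floor, 1 member (Srsf12) was at least 2-fold higher, since its ORS signal was then used as read, and with a floor at the 60th percentile 1 member was 1.5-fold higher. With the mean over probe sets, 5 members were at least 1.5-fold lower (11.0% of all genes were). Counted as 165 probe sets, 23 were at least 1.5-fold lower (12.3% of all probe sets were) and 2 at least 2-fold lower (4.44% were). Probe sets are a larger number of items by construction. Quantile normalization, loess scaling, a pseudocount and probe sets without a suffix left the counts within 1.5 times and the median within 0.1 of the reported ones. Of 611 values of single members and role groups under the alternatives, 586 stayed within the tolerance set (0.41 on the log2 scale for a gene, 0.1 for a median), 25 moved further and none of the members called 1.5-fold apart changed sign. No paired analysis was possible because each population has 1 array, and none could be left out.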

Other observations

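Some probe sets that name a splicing gene also name another gene, and these were kept out of the values above. For Snrpd1, Snrpd2, Snrpa and Hnrnpa3 they were the only ones, while Hnrnpa1, U2af1l4 and Snrpn also have probe sets of their own. There were 18 such probe sets, 15 of them above the floor on at least 1 array, with a median log2 ratio of -0.11. Of these 15, 11 were lower on the early bulge array, where 46.5% of all measured probe sets of a single gene were. No share was counted over all probe sets that name several genes. The probe set shared by Snrpd1, an Sm protein, and Gm14277 read 1547 in the early bulge and 3242 in the ORS (log2 ratio -1.07). The set shared by Snrpd2 and Gm5848 read 5387 and 6562 (-0.28), and that shared by the U1 protein gene Snrpa with other loci read 1293 and 1328 (-0.04). The 4 probe sets shared by Hnrnpa3 and Gm6793 gave log2 ratios from -0.21 to -0.07.

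Snrpn, which encodes an Sm protein close to Snrpb and is an imprinted gene sharing its transcript with Snurf, was below the floor on its own probe set. Of 6 probe sets annotated to both Snurf and Snrpn, 3 were above the floor. They gave 1655 and 1451 (0.19), 425.1 and 362.5 (0.23), and 769.2 and 180.1 (2.09), so the probe sets of this locus differ by more than 3-fold among themselves.

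Among members with at least 2 measured probe sets, the brightest had a higher ratio than the mean of the others in 24 of 41 (58.5%), against 45.0% of 6172 genes of all kinds with at least 2.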
